A study of Mus musculus with 5 samples.

Results

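The loci of 10 genes of the machinery that takes a cell out of the cell cycle were examined for CUT&Tag signal of Pou4f1 in the embryonic mouse retina: the D-type cyclins Ccnd1, Ccnd2 and Ccnd3, the kinases Cdk4 and Cdk6, the Cdk inhibitors Cdkn1a, Cdkn1b and Cdkn1c, the pocket protein gene Rb1 and the transcription factor gene E2f1. Every region of the deposited table that overlapped the body of one of these genes in GENCODE M21 (mm10), or lay within 20 kb of it, was taken, whatever its signal. This gave 6 regions of the 8038 in the table, 1 each at Ccnd1, Ccnd3, Cdk4, Cdk6, Cdkn1b and Cdkn1c. No region lay within 20 kb of Ccnd2, Cdkn1a, Rb1 or E2f1. Among all 21938 protein-coding genes, 40.8% had a region within 20 kb, against 6 of these 10.

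In CUT&Tag an antibody bound to a chromatin protein guides a tethered transposase, which tags the DNA around it for sequencing. All groups were wild-type (WT) retinas at E16.5, and each sample was a pool of 4 retinas. The signal was measured with rabbit anti-Pou4f1 (n = 2) and with rabbit IgG, an antibody without a target that serves as the negative control (n = 2). A single library with rabbit anti-H3K9AC, made to mark active chromatin, was not analysed here. The retinas were used whole, so progenitors and all other cell types present at that age contributed to the DNA. The table holds chromatin signal and no expression, so the tissue could not be checked by marker genes. The values are signal per region, not read counts, and no source used here gives the library depths. Over all regions the median signal was 184 and 155 in Pou4f1 replicates 1 and 2. The controls, 1 named IgG and 1 named negative control, had medians of 4.78 and 7.96, with 3716 and 3470 regions at exactly 0. The authors called these regions as enriched in Pou4f1, so a signal above IgG is partly fixed by that choice at any region of the table.

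Pou4f1 (Brn3a) is a POU-homeodomain transcription factor of retinal ganglion cells, the neurons that send the axons of the optic nerve and that have left the cell cycle. D-type cyclins bind and activate Cdk4 and Cdk6, which phosphorylate the retinoblastoma protein encoded by Rb1 and so release E2F factors to transcribe the genes of S phase. The inhibitors p21 (Cdkn1a), p27 (Cdkn1b) and p57 (Cdkn1c) bind cyclin-Cdk complexes, and in the developing retina p27 and p57 are known for their part in the exit of progenitors from the cycle.

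The stretches of DNA that the results turn on are shown first, from the RefSeq assembly GRCm38.p6, which has the coordinates of mm10. Capitals mark the CCAAT box (CCAAT), the GC box (GGGCGG) and the E-box (CACGTG), searched on both strands. The Cdk4 promoter (chr10:127063285-127063533, plus strand) and the Cdkn1b promoter (chr6:134920151-134920400, plus strand) are the bases just upstream of the gene starts that their regions cover. They are shown because each gene has a region at a start of its own.
Cdk4 promoter: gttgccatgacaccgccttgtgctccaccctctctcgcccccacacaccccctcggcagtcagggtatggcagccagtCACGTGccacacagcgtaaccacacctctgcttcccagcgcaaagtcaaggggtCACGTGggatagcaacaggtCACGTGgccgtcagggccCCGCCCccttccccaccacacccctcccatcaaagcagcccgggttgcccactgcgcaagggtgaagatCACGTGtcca
Cdkn1b promoter: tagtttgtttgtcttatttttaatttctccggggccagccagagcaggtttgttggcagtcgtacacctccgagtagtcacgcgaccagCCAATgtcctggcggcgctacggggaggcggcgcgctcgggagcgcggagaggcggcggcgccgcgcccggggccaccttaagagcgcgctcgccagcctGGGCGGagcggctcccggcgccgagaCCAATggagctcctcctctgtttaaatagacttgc

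The Cdk4 promoter held 4 E-boxes, a motif read by basic helix-loop-helix factors such as Myc. The E-box was searched for only after this sequence had been seen. Of the 32851 RefSeq promoters, which span 250 bases before to 50 after each start, 7.15% held at least 1 E-box and 8 promoters (0.0244%) held 4 or more. The whole Cdk4 region also held 4, against 4 or more in 11 of the 8028 regions on chromosomes. The Cdkn1b promoter held no E-box. Of the 8 RefSeq promoters held for members, 2 (25.0%) had an E-box, that of Cdk4 and that of Cdk6, which held 1. The Ccnd3 region held 2.

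The central 200 bp of the Cdk6 region (chr5:3436799-3436998, plus strand) are shown because this DNA was built of copies of itself. Here capitals mark the most frequent 12-base word of the region, CAGTGTGAGGCC.
Cdk6 region centre: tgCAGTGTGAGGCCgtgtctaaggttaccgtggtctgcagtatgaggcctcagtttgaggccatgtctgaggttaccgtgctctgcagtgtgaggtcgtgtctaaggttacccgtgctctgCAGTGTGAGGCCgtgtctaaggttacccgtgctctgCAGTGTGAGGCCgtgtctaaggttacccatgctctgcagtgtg

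That word occurred 51 times in the 2043 bp of the Cdk6 region and 3 times in the stretch shown. When the region was laid against itself at a shift of 36 bp, 76.9% of bases were identical. In the other 5 member regions the best shift up to 100 bp gave 29.9% to 34.9%. Over the 8015 regions long enough for the comparison, 104 (1.30%) reached the value of the Cdk6 region.

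The signal in each library is plotted for the 6 regions, and the positions of the regions are drawn along the 10 genes.

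**Figure D1:**
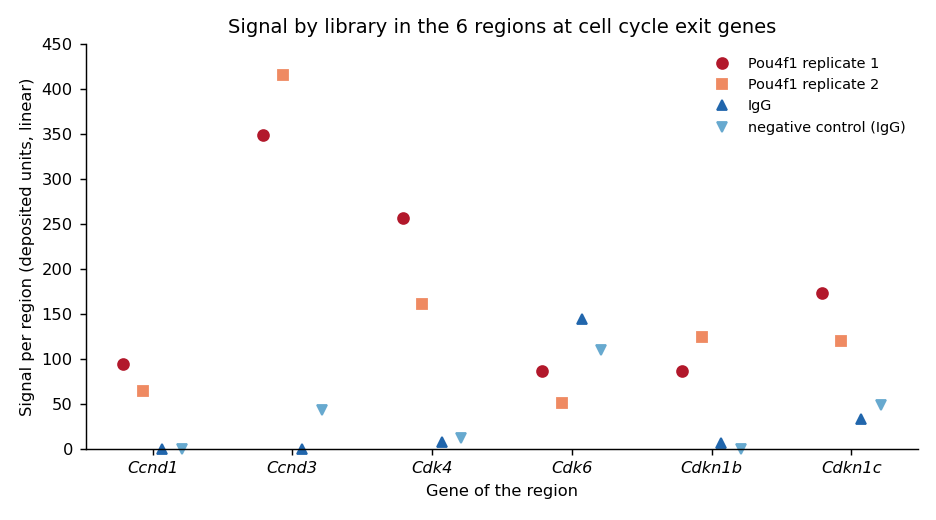
Deposited signal (linear axis from 0) of each of the 4 libraries in the 6 regions at cell cycle exit genes; each point is 1 library. Both Pou4f1 libraries lie above both IgG libraries at 5 genes, and at Cdk6 both IgG libraries (144 and 110) lie above both Pou4f1 libraries (86.7 and 51.3).

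**Figure D2:**
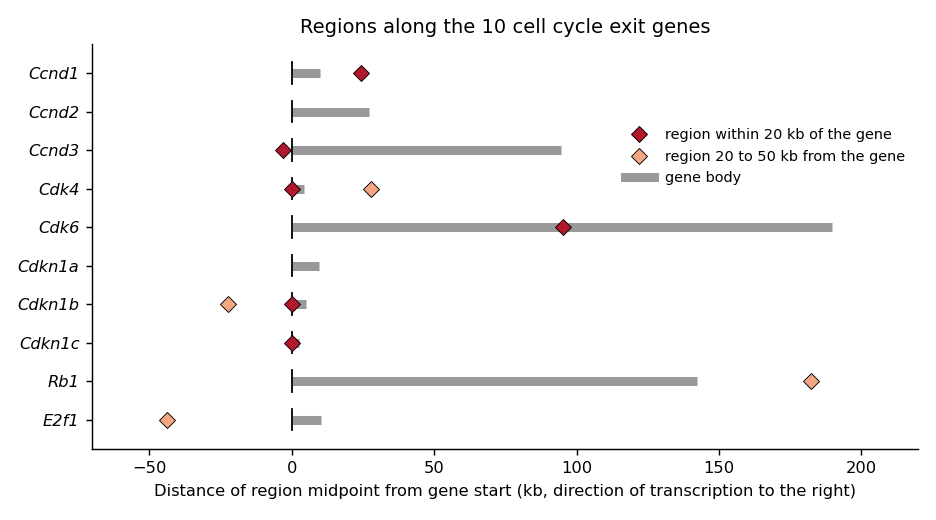
Distance in kb from each gene start, with transcription running to the right; grey bars are gene bodies, dark diamonds are the midpoints of the 6 regions within 20 kb and pale diamonds those of the 4 regions 20 to 50 kb away. Only Cdk4, Cdkn1b and Cdkn1c have a region at their own start, and Ccnd2 and Cdkn1a have none within 50 kb.

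Of the cyclin and kinase genes, Cdk4 was the only one with a region at its own start. This region (chr10:127062980-127064090, 1111 bp) was centred 1 bp from the start of the gene (chr10:127063534-127067920, plus strand, ENSMUSG00000006728.12) and covered 449 bp of Cdk4 exon, none of it coding. Pou4f1 replicates 1 and 2 had signals of 257 and 161 here, and the IgG libraries 7.55 and 12.0. Both Pou4f1 libraries were thus far above both controls, and the difference was 4.28 ± 0.52 (log2 of signal + 1, SE; adjusted p = 0.00968, limma with Benjamini-Hochberg adjustment over all 8038 regions). It ranked 3010 by mean Pou4f1 signal (percentile 62.6), the second highest of the 6. The call ended when the IgG signal was multiplied by 4 (2.39, adjusted p = 0.0686) and with column totals as library sizes (0.36, adjusted p = 0.613).

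The highest signal of the 6 lay beside Ccnd3, which encodes cyclin D3, but at the start of another gene. The region (chr17:47501877-47502459, 583 bp) ended 2592 bp upstream of Ccnd3 (chr17:47505051-47599691, plus strand, ENSMUSG00000034165.16). Its midpoint was 104 bp from a start of Taf8, which encodes a subunit of the general transcription factor TFIID, and all 5 transcript starts inside it were of Taf8. The signal was 349 and 415 with Pou4f1, with 0 and 43.3 in the IgG and negative control columns. Although both Pou4f1 libraries were above both controls, the controls differed so much from each other that the difference of 5.84 ± 2.19 did not pass the test (adjusted p = 0.0836). It passed with a pseudocount of 10 (4.08, adjusted p = 0.0121). The difference was 3.11 without the library named IgG and 8.58 without the one named negative control. In those 2 fits the lone control is assumed to vary like the Pou4f1 libraries. All 6 regions were also given the same SE (0.73), so a region's own spread was not used. The region ranked 808 (percentile 90.0) and was the shortest of the 6 (percentile 5.59 of length in the table).

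Cyclin D1, the main D-type cyclin of retinal progenitors, is encoded by Ccnd1 (chr7:144929931-144939925, minus strand, ENSMUSG00000070348.5). Its region (chr7:144914731-144916039, 1309 bp) lay 13892 bp past the 3′ end of the gene and contained 5 transcript starts, all of the neighbouring gene LTO1, the nearest 205 bp from the midpoint. The signal was 94.6 and 63.7 in the Pou4f1 libraries and 0 in both IgG libraries. The groups were fully apart, with a difference of 6.30 ± 0.43 (adjusted p = 0.00280). The Pou4f1 signal was low for the table (rank 7395, percentile 8.01). With a pseudocount of 1 this was the largest log2 difference of the 6, but with a pseudocount of 10 it was 3.13, below those of Ccnd3 (4.08), Cdk4 (3.44) and Cdkn1b (3.18). Cdkn1b (6.72) was above it without the library named IgG, and Ccnd3 (8.58) without the one named negative control. A fold against controls that are both listed at 0 depends on the pseudocount and is no bound.

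Cdk6 (chr5:3341485-3531008, plus strand, ENSMUSG00000040274.11) held 1 region, in which the controls carried more signal than Pou4f1 on the deposited scale. The region (chr5:3435877-3437919, 2043 bp) lay in an intron, 95413 bp into the gene and 34051 bp from the nearest annotated transcript start, which is also of Cdk6. The signal was 86.7 and 51.3 in the Pou4f1 libraries and 144 and 110 in the IgG libraries. On that scale both controls were above both Pou4f1 libraries, as in 1.46% of all regions (117 of 8038). The difference of -0.91 ± 0.50 did not pass the test (adjusted p = 0.167), which does not show that the groups were equal. It was called lower in Pou4f1 with the IgG signal multiplied by 4 (-2.90, adjusted p = 0.0396) and with column totals as library sizes (-4.93, adjusted p = 0.0156). As scaled by the authors, regions called lower in Pou4f1 were 0.224% of the table (18 of 8038). That share was 1.09% (88) with the IgG signal multiplied by 4 and 2.04% (164) with column totals as library sizes. By mean IgG signal this region ranked 97 of 8038 (percentile 98.8), and by mean Pou4f1 signal 7649 (percentile 4.85).

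The Cdk6 region was the longest of the 6, longer than 97.9% of all regions, and 88.1% of its bases were soft-masked as repeats in the assembly, against 5.14% to 10.9% in the other 5 and a median of 5.62% in all. Of the 8028 regions on chromosomes, 154 (1.92%) were masked over more than 50% of their length. On the deposited scale, 95 of these 154 had both IgG libraries above both Pou4f1 libraries. In all, 116 regions on chromosomes had both IgG libraries on top, and 81.9% of them were masked over more than 50%. What the repeats contributed to the signal was not tested.

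**Figure D3:**
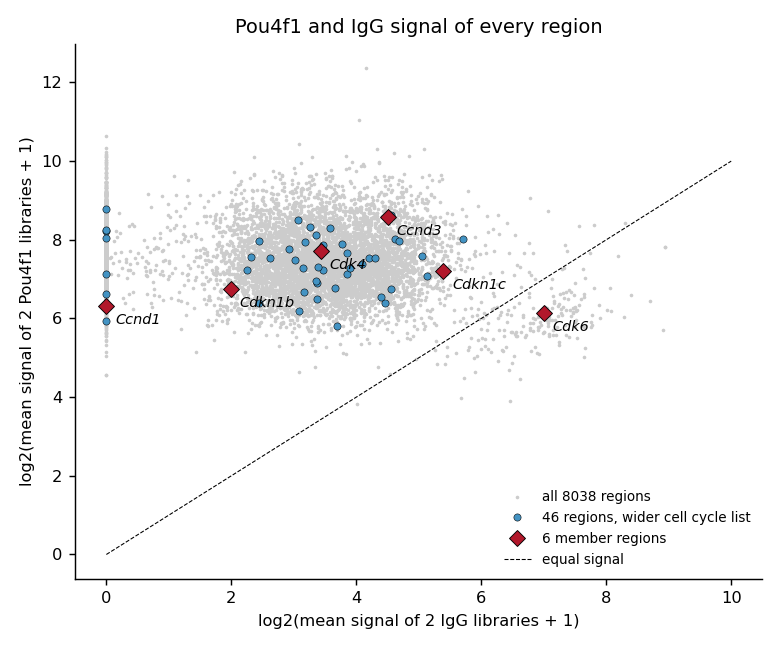
Mean signal of the 2 Pou4f1 libraries against that of the 2 IgG libraries, each as log2(signal + 1), for all 8038 regions (grey), the 46 regions at a wider list of 41 cell cycle genes (blue) and the 6 member regions (red diamonds); the dashed line is equal signal. The Cdk6 region is the only member below the line, among the small group of regions with high IgG signal, and no region of the wider list is below it on the deposited scale.

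Of the inhibitors, Cdkn1b had a region over its start. The region (chr6:134919867-134921264, 1398 bp) was centred 52.5 bp from the nearest start of the gene (chr6:134920401-134925513, plus strand, ENSMUSG00000003031.14) and covered 864 bp of its exons, 345 bp of them coding. The signal was 87.0 and 125 with Pou4f1, with 5.94 and 0 in the IgG and negative control columns. Both Pou4f1 libraries were far above the controls, by 5.32 ± 1.18 (adjusted p = 0.0347). The replicates placed it differently: it ranked 7596 in replicate 1 and 4890 in replicate 2, and 6514 by the mean (percentile 19.0). The call ended when the IgG signal was multiplied by 2 (adjusted p = 0.0936), and the difference then stood at 4.87.

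The region of Cdkn1c (chr7:143460493-143461212, 720 bp) was centred 143.5 bp from a start of the gene (chr7:143458339-143461050, minus strand, ENSMUSG00000037664.13). It covered 422 bp of Cdkn1c exon, 215 bp of them coding, and overlapped the antisense gene Gm44732. The signal was 173 and 120 in the Pou4f1 libraries and 32.8 and 49.1 in the IgG libraries. The groups did not overlap, but the controls were high for this table (rank 292 of 8038, percentile 96.4), and the difference of 1.82 ± 0.48 was the smallest of those that passed (adjusted p = 0.0465). The call depended on scaling and ended at 0.84 (adjusted p = 0.203) with the IgG signal multiplied by 2, and turned to -0.15 (adjusted p = 0.791) when multiplied by 4 and to -2.19 (adjusted p = 0.0528) with column totals as library sizes. The column totals are sums over the called regions, not library depths. With a GC content of 67.5% the region was the richest in G and C of the 6.

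In all, 4 of the 6 regions were called higher in Pou4f1 (Ccnd1, Cdk4, Cdkn1b and Cdkn1c), 66.7% against 64.8% of the table, and none lower, also at an unadjusted p under 0.05. In 5 of the 6, as scaled by the authors, both Pou4f1 values exceeded both IgG values, against 96.5% of the table. The median log2 difference was 4.80, below that of all regions (5.22), and the median percentile of the mean Pou4f1 signal was 28.9. With either Pou4f1 library left out, 1 of the 6 was still called, at Ccnd1, while the share of the table called fell to 29.4% without replicate 1 and 30.9% without replicate 2. Of the 4 called regions, Ccnd1 alone kept its call under every alternative run. Both controls are 0 there, so multiplying the IgG signal by 2 or 4 could not change its difference (6.30 in both). With a Pou4f1 library left out, the region's own spread came only from these controls at 0. Its call in those runs was thus largely fixed by the zeros and is no measure of a strong signal. An exact permutation test of 2 against 2 libraries cannot go below p = 0.333, and the p-values cover the spread between these libraries only, which the study calls independent replicates.

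The replicates did not move alike over the 6 regions. The ratio of replicate 2 to replicate 1 was below 1 at Ccnd1, Cdk4, Cdk6 and Cdkn1c (0.592 to 0.696) and above 1 at Ccnd3 (1.19) and Cdkn1b (1.43). The median ratio of the 6 was 0.685, beside 0.701 over the 5147 regions within 1 kb of a start and 1.18 over the 1495 in introns.

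**Figure D4:**
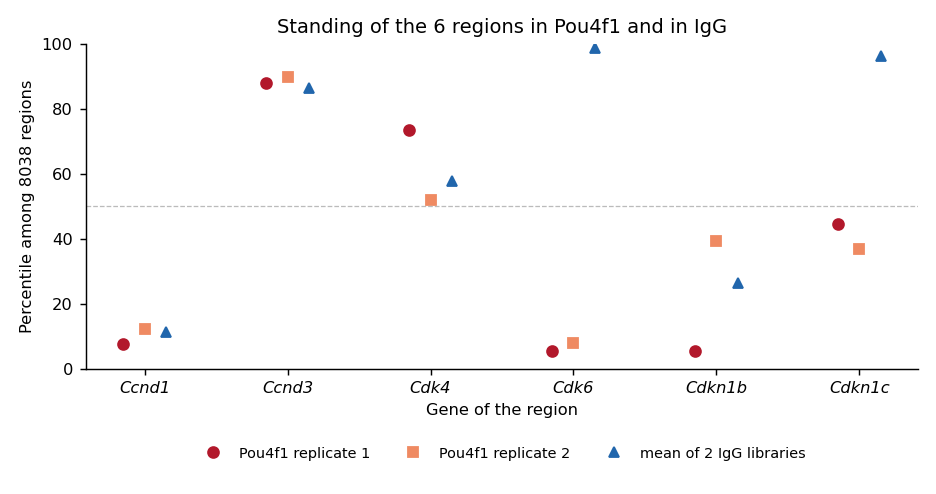
Percentile of each member region among the 8038 regions by the signal of Pou4f1 replicate 1, of replicate 2 and of the mean of the 2 IgG libraries, with tied values given their mean rank; the dashed line is the median region. Ccnd3 is high in all, Cdk6 and Cdkn1c stand at 98.8 and 96.4 in IgG, and Cdkn1b stands at 5.51 in replicate 1 and 39.2 in replicate 2.

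The cyclin and kinase genes had 4 regions at 4 of 5 genes and the inhibitors 2 regions at 2 of 3 genes. The median over regions of the mean Pou4f1 signal was 144 for the cyclins and kinases (range 69.0 to 382) and 126 for the inhibitors (106 and 147). The values of the inhibitors thus lay inside the range of the cyclins and kinases. Between the medians of the log2 values the difference was 0.05, with 0.34 in replicate 1 and -0.27 in replicate 2, so the replicates gave opposite signs and no order of the roles could be read from them. The medians of the log2 difference from IgG were 5.06 and 3.57. The roles differed in position: both inhibitor regions were at a start of the inhibitor gene itself, whereas 1 of the 4 cyclin and kinase regions was at a start of its own gene. With so few regions these are descriptions.

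A region within 1 kb of one of the gene's own starts was present at 3 of the 10 members, beside 24.9% of all protein-coding genes (5470). Measured to the start of any gene, 5 of the 6 regions (83.3%) were within 1 kb, against 64.1% of the table, and 2 of these 5 were at the starts of neighbours.

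Of the 4 members without a region, Ccnd2, which encodes cyclin D2, was the most isolated, with the nearest region 164 kb downstream. That region had 53.6 and 26.5 in the Pou4f1 libraries and 24.8 and 0 in the controls, the lower Pou4f1 library being almost level with the higher control (adjusted p = 0.225). The nearest region to Cdkn1a was 82.7 kb upstream at a start of the kinase gene Stk38 (121 and 58.6 against 25.0 and 0, adjusted p = 0.129). For Rb1 it was 39.8 kb downstream, at a start of Rcbtb2 (133 and 128 against 0 and 14.7, adjusted p = 0.0629). E2f1 had its nearest region 43.2 kb upstream at a start of 4930519P11Rik (151 and 101 against 12.4 and 0, adjusted p = 0.0579). At all 4 both Pou4f1 values exceeded both controls, as in 96.5% of the table. None passed the test, beside 64.8% of the table called higher in Pou4f1. The table lists enriched regions only, so absence from it gives no level for these loci.

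Widening the window to 50 kb brought the count to 10 regions at 8 of the 10 genes. Beside those of Rb1 and E2f1, it added a region in an exon of Agap2, 22672 bp from Cdk4 (63.4 and 49.0 against 0 and 8.78, adjusted p = 0.0649). It also added a region at a start of 2810454H06Rik, 21613 bp from Cdkn1b, with 124 and 89.5 in the Pou4f1 libraries and 15.5 and 11.0 in the controls. This last one passed the test, at 2.92 ± 0.46 (adjusted p = 0.0170).

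The other genes of the pathway were taken from a list of 41 cyclins, Cdks, inhibitors, pocket proteins, E2F factors, ubiquitin ligase parts and antiproliferative genes. Of these, 28 (68.3%) had at least 1 region within 20 kb and 13 had none, and 24 (58.5%) had a region at a start of their own, beside 24.9% of all protein-coding genes. The 46 regions had a median log2 difference of 4.57 and a median percentile of 53.2, and 31 (67.4%) were called higher in Pou4f1 and 0 lower, near the 64.8% of the table. In all 46, on the deposited scale, both Pou4f1 values exceeded both IgG values, near the 96.5% of the table. Of the 46, 25 were within 1 kb of a start of the listed gene and 21 were elsewhere in the window. The genes of the list were chosen for their function and the share is a description.

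The highest signal on that list was at E2f3, an activator of S phase genes, with 457 and 421 in the Pou4f1 libraries and 0 in both controls (8.78 ± 0.38, adjusted p = 0.00222), at a start of E2f3. The next was at a start of Btg1, an antiproliferative gene, with 457 and 329 against 13.9 and 30.9 (4.16 ± 0.60, adjusted p = 0.0145). The third was 823.5 bp from a start of Fbxw7, whose product marks cyclin E and Myc for degradation, with 406 and 323 against 0 and 14.7 (6.52 ± 1.61, adjusted p = 0.0414). All 3 were above the Cdk4 region, and 2 of them above the Ccnd3 region, in mean Pou4f1 signal. The most regions within 20 kb were at Fzr1, an activator of the anaphase-promoting complex (5), followed by Cks1b, a Cdk subunit, and Cdkn2c, an inhibitor of Cdk4 and Cdk6 (3 each). Many of these were nearest a neighbour's start: Hmg20b, Mfsd12 and Dohh at Fzr1, Flad1, Shc1 and Pygo2 at Cks1b, and 9630013D21Rik and Faf1 at Cdkn2c. The region at Shc1 was also 145 bp from a Cks1b start. By class, the 9 regions at pocket protein, E2F and DP genes had a median mean Pou4f1 signal of 250, with 7 called, and the 12 at other inhibitors and antiproliferative genes had 152, with 7 called. These are 77.8% and 58.3% of the regions, on either side of the 64.8% of the table. Both classes include regions at starts of neighbouring genes only. The median of 250 is the signal of 1 of these, at a start of Lrrc29, 21942 bp from the nearest E2f4 start. Rb1 and E2f1 belong to the first of these classes by function and had no region within 20 kb. Of the 11 listed genes of that class, 6 had one.

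The POU class IV consensus, the site that Pou4f1 and its relatives bind, was in none of the 6 member regions, whether over the central 200 bp or the whole region. A count of 0 of 6 allows a share of up to 45.9% (95% exact binomial interval). The interval takes the 6 regions as independent draws, whereas they were picked by gene. In all 8028 regions on chromosomes the consensus was in 4.38% of central windows and in 11.1% of whole regions. Within 1 kb of a start those shares were 0.680% and 2.70%, and in introns 11.9% and 28.9%. In the wider list 1 of 46 whole regions held it. The shorter ATNAAT was in the centre of the Ccnd1 region only, 1 of 6 beside 19.5% of all and 6.28% of those near a start. Over whole regions it was in those of Ccnd1 and Cdk4, 2 of 6 beside 54.4% of all and 39.8% of those near a start.

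Motifs known from promoters were also searched. The GC box, read by Sp-family factors, was in 5 of the 6 whole regions (all but Cdk6), beside 66.2% of all whole regions and 90.1% of those near a start. It was in the centre of 4, where 37.5% of all central windows and 53.8% of those near a start held it. The CCAAT box was in 4 of 6, all 3 regions at an own start among them, beside 67.4% of all whole regions. E2F sites (TTTCCCGC, TTTCGCGC, TTTGCCGC or TTTGGCGC), which bring E2F factors to cell cycle promoters, were in none of the 6. They were in 11 of the 46 regions of the wider list (23.9%), beside 8.94% of all regions and 12.4% of those near a start. The CHR element (TTTGAA) was in the regions of Ccnd1 and Cdk4, 2 of 6 beside 33.8% of all. In the 8 RefSeq promoters held for 6 of the 10 members the POU consensus was in 0, where 0.868% of all promoters held it, and the GC box in 6, beside 35.7% of all.

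The amount of sequence behind each value was estimated from the values themselves. Multiplied by the length of its region, a signal was a whole multiple of a step of its library (99.99% to 100% of values at a tolerance of 0.05). Here 1 step is read as 1 covered base, which no source used here states. In both IgG libraries 80 steps was the most frequent of the low values. At the Cdk4 region the Pou4f1 libraries had 6341 and 2925 covered bases and the IgG libraries 110 and 150. At Cdkn1b the IgG libraries had 109 and 0, so the control value there rested on little sequence. At Cdk6 they had 3853 and 2535, beside 3937 and 1715 in the Pou4f1 libraries, so the values there rested on similar amounts of sequence in both groups. By covered bases both controls thus lay between the Pou4f1 libraries, unlike on the deposited scale. The step was 45.0 and 61.2 in Pou4f1 replicates 1 and 2, and 76.2 and 88.9 in the IgG and negative control columns.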

How the data were processed

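The CUT&Tag reads came from pooled E16.5 retinas of wild-type mice. The study's methods name Bowtie2 (2.4.5) as the aligner, mm10 as the genome and SEACR, in its relaxed setting, as the peak caller, after removal of adaptors and masking of poor sequence. The authors deposited 1 table of 8038 regions, with the signal of each of 4 libraries in a column of its own. No source used here gives the scaling of that signal, or says whether libraries were pooled for calling. The column named negative control was taken as IgG, the only negative control that the study names.

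Pou4f1 (n = 2) was compared with IgG (n = 2) with limma 3.58.1 (R 4.3.3) on log2(signal + 1) over all 8038 regions, without scaling, filter or covariates. P-values were adjusted by Benjamini-Hochberg over all regions, with a threshold of 0.05, and they are limma's adjusted p throughout. Alternatives changed the scaling, pseudocount (0.1 and 10), filters, spread, libraries, window and measure, and those without the Cdk6 region were chosen after seeing the data.

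Gene models were those of GENCODE M21, bases were read from the GRCm38.p6 assembly, and table starts were converted to count from 1. Distances to a start run from the midpoint of a region, and distances to a gene from the nearest edge of the region to the nearest end of the gene. Percentiles are of the mean of both Pou4f1 libraries. Other steps used Python 3.11.15, pandas 2.3.3, numpy 2.4.6 and pysam 0.24.0. The rule names every region within 20 kb of the 10 members, and of the 41 other cell cycle genes the 3 with the highest signal and the 3 with most regions. Members, lists and tests were chosen with earlier results of these data known. The intervals cover counting error only, and no H3K9AC values were used here.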

Additional observations from a re-analysis of the deposited data

How the results depend on the processing

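The count of member regions called higher in Pou4f1, 4 of 6, fell to 2 with the IgG signal multiplied by 2, to 1 when multiplied by 4 and to 1 with column totals as library sizes, and to 2 with a pseudocount of 0.1. It rose to 5 with a pseudocount of 10. The share of all regions called moved alike, from 64.8% to 36.7%, 26.8%, 22.7%, 43.4% and 92.6%. The count lay between 1 and 5 when each library was left out in turn: 1 without either Pou4f1 library (29.4% and 30.9% of all regions) and 5 without either control (94.4% and 95.9%). The members' median log2 difference, 4.80, became 4.11, 3.39 and 1.60 under those scalings, 5.73 and 3.16 with pseudocounts of 0.1 and 10, and 3.54 to 4.84 with each library left out. The same scalings took the median of all regions from 5.22 to 4.71, 4.20 and 2.74, so relative to it the members stood at -0.42 as scaled by the authors and at -0.60, -0.81 and -1.14. At Cdkn1c the difference turned to -0.15 with IgG multiplied by 4 and to -2.19 with column totals. Filters on low signal and on length and a trend of the spread changed no call. A window of 50 kb gave 10 regions. The median percentile, 28.9, was 38.1 in replicate 2 alone, 40.7 by signal times length, and 38.9 with a window of 10 kb or without the Cdk6 region, which also took the median log2 difference to 5.32. The difference between the roles, 0.05, was -0.27 in replicate 2 alone and 0.74 with 10 kb or without the Cdk6 region. It had no value away from starts, where no inhibitor has a region. The cause of these shifts was not tested. No paired analysis was possible because the control columns carry no replicate numbers. With 2 libraries a group and controls at 0 in many regions, the low control signal limits every fold.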
